A study of Rattus norvegicus with 15 samples.

Results

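The genes described here encode the Polycomb machinery that writes, reads and removes methylation of lysine 27 on histone H3 (H3K27), together with partner subunits, in the embryonic rat cortex. Members were the rows of the deposited count table whose gene name was Ezh1, Ezh2, Eed, Suz12, Jarid2, Rbbp7, Kdm6a, Kdm6b, Bmi1 or Cbx2. All 10 were found once among 32623 genes, and all 10 were among the 15354 genes that passed the filter on low counts. Rows were picked by gene name, and the set was chosen with earlier results of these data known.

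The HFD group were Wistar embryos of mothers fed a diet with 60% of calories from fat, and the Control group were Wistar embryos of mothers fed normal chow. The diets began after weaning, and mothers were mated with healthy males after the HFD females had become obese. Frontal cortex was taken at embryonic day E14.5, E16.5 or E18.5, and each stage had 2 HFD and 3 control libraries. The methods state that 1 library held the pooled cortices of 1 litter, so that the litter is the replicate. Ribosomal RNA was removed from total RNA before sequencing.

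Library totals lay between 5598195 and 9529978 counts. The library labelled E18.5 Control replicate 1 stood among the E14.5 libraries on the first principal component (PC1, 56.0% of the variance), at -59.9 against -88.8 to -35.0 for E14.5 and 58.3 to 70.0 for the other E18.5 libraries. It was therefore set apart, and results that rest on it are given with and without it. E14.5 libraries also carried RNA of tissue around the brain. The summed level of 17 head mesenchyme and meninges markers was 1937 to 6202 CPM (a gene's counts relative to the scaled library total) at the first stage, 458 to 1123 CPM at the second and 534 to 1298 CPM at the third, and it was 5212 CPM in the library set apart. Of 7 lens markers, none was under 1 CPM in every E14.5 library, 4 were at E16.5 and 5 at E18.5. The forebrain markers were present at each stage, with a sum over 6 genes of 219 to 625 CPM at E14.5, 1016 to 1474 CPM at E16.5 and 943 to 1209 CPM at E18.5.

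Polycomb repressive complex 2 (PRC2) places methyl groups on H3K27, a mark of silent developmental genes. Its catalytic subunit is either Ezh2, which is typical of dividing progenitors, or Ezh1, which is typical of cells that have left the cell cycle. Both act only with the core subunits Eed and Suz12. Polycomb repressive complex 1 (PRC1) contains Cbx proteins, which bind the methylated lysine, and Pcgf proteins such as Bmi1, which assist ubiquitination of histone H2A. Kdm6a and Kdm6b take the methyl groups off. In mouse cortex, PRC2 is known for setting the timing with which neural progenitors pass from neuron to glia production.

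Promoters are shown for the members that were called between stages and had a matched window, so that members with like and unlike stage courses can be set side by side. RefSeq promoter windows of build GRCr8, from 250 bases before to 50 bases after the annotated start, were matched by symbol for 7 of the 10 members. Those printed are Ezh2 (chr4:77687134-77687433, minus strand), Suz12 (chr10:65464719-65465018, plus strand), Eed (chr1:153307451-153307750, minus strand), Rbbp7 (chrX:35562981-35563280, minus strand), Kdm6b (chr10:54640965-54641264, minus strand) and Bmi1 (chr17:86243994-86244293, plus strand). Capitals mark matches on either strand to E2F-type motifs (TTTGGCGC, TTTCGCGC, TTTCCCGC or TTTGCCGC) or to the CCAAT box (CCAAT, read as ATTGG on the other strand).
Ezh2: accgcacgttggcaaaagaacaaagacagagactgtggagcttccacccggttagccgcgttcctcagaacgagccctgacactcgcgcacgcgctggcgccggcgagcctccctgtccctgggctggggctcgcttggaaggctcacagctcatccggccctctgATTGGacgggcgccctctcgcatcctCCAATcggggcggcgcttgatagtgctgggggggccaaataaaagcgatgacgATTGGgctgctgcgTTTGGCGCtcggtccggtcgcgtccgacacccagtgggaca
Suz12: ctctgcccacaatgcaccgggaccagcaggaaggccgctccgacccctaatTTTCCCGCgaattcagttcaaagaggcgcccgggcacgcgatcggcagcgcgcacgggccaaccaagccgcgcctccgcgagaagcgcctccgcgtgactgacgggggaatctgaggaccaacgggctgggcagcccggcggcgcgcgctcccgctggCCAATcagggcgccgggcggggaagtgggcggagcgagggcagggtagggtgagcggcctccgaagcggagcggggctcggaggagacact
Eed: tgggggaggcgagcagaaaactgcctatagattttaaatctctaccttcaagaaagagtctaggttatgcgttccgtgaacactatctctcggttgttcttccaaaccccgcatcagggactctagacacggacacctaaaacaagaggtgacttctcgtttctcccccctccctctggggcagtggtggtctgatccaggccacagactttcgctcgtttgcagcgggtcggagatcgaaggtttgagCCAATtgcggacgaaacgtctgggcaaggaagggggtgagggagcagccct
Rbbp7: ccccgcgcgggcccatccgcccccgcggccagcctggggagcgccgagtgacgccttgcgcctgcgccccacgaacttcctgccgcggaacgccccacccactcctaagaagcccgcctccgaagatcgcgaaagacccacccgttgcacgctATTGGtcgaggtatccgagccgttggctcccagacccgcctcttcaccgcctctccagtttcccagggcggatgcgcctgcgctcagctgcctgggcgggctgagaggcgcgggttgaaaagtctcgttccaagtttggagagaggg
Kdm6b: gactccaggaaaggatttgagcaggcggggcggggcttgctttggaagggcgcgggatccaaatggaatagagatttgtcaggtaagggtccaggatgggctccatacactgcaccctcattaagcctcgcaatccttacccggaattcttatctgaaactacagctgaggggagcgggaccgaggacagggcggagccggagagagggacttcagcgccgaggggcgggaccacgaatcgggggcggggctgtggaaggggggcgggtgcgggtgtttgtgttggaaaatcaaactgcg
Bmi1: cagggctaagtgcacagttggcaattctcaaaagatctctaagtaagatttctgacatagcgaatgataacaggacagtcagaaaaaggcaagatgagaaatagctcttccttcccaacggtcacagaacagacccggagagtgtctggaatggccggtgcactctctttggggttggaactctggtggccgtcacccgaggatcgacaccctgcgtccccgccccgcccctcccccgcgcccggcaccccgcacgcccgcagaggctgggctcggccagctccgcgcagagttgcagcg
An E2F-type match was in 2 of the 7 member promoters, those of Ezh2 and Suz12, and in 2.25% of 27457 promoters of the same length. The Ezh2 match starts at base 10 after the annotated start, and the Suz12 match starts at base -199. No E2F-type match overlapped a CCAAT box. A CCAAT box was in 5 of the 7 member promoters and in 37.7% of all. Ezh2 held 3 CCAAT boxes, while Suz12, Eed, Rbbp7 and Jarid2 held 1 each. The windows of Bmi1 and Kdm6b held neither motif. These matches are letters in a window, and no binding was measured here.

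Stage was the main axis along which the members differed. Stages also differed in head tissue RNA and cell content, and the part of these was not tested. Averaged over diets, 8 of the 10 members passed the test at E18.5 against E14.5 (edgeR quasi-likelihood test, Benjamini-Hochberg adjusted p under 0.05 over all genes), 6 lower and 2 higher. The share of all genes called was 58.6%, with 31.6% lower and 27% higher, so that the members' share was read against a large background. The median log2 fold change of the members was -0.50, against -0.07 for all genes tested. PRC2 core subunits with Ezh2 and the PRC1 reader Cbx2 were lower at E18.5, while Ezh1 and Bmi1 were higher.

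**Figure D1:**
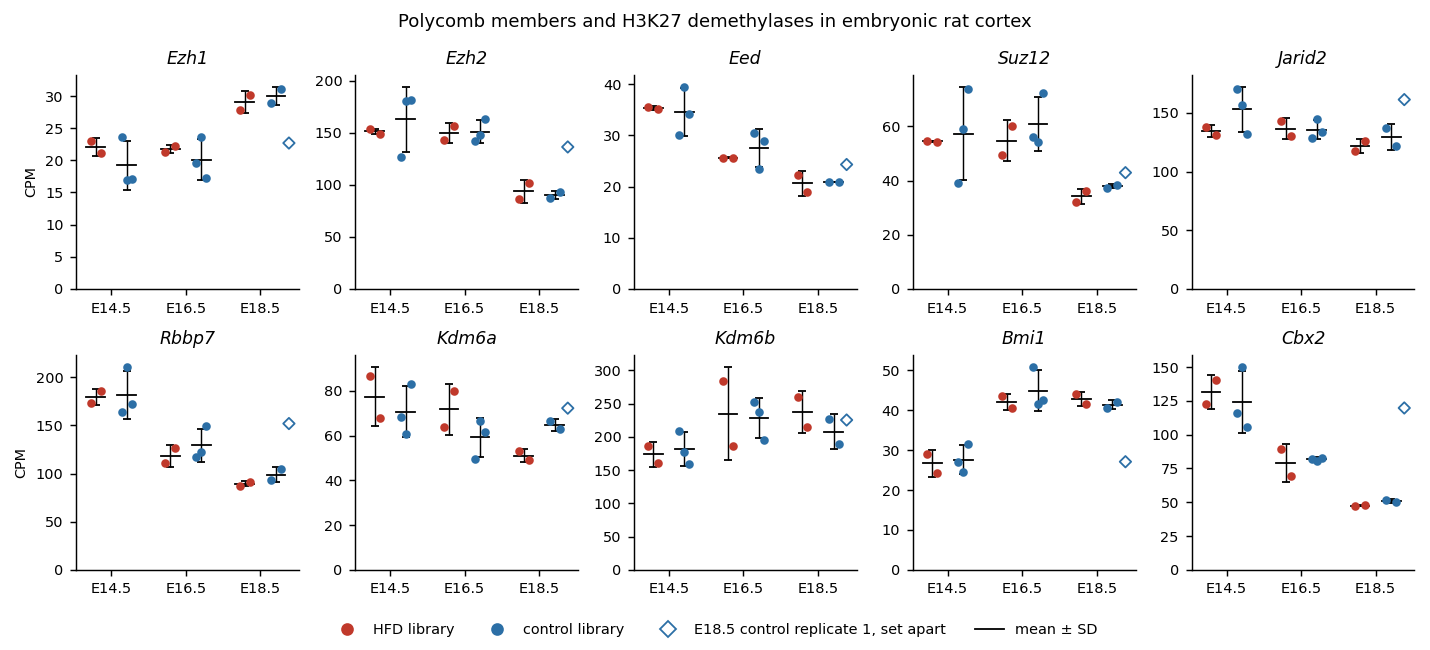
CPM of each member (y axis, linear from 0) by stage (x axis), with 1 point per library, HFD in red on the left and control in blue on the right of each stage, and bars for the mean ± SD. The open diamond is E18.5 Control replicate 1, which is not in the means: for Cbx2 it lies at 119.8 CPM, where the other 4 E18.5 libraries lie between 47.2 and 51.8 CPM.

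Ezh2 (ENSRNOG00000006048), the main H3K27 methyltransferase of progenitors, had 153 and 149 CPM in HFD and 127, 181 and 181 CPM in control libraries at E14.5. At E16.5 it had 143 and 156 CPM in HFD and 142, 148 and 163 CPM in control libraries. At E18.5 it had 85.9 and 101 CPM in HFD and 87.8 and 92.9 CPM in control libraries. The 4 E18.5 libraries were thus all below the 10 earlier ones, and levels at E16.5 and E14.5 overlapped. Ezh2 fell at E18.5 against E14.5 by 0.77 ± 0.11 on the log2 scale (SE; adjusted p = 7.36e-05, edgeR), and this fall lay in the second interval, with -0.71 ± 0.11 at E18.5 against E16.5 (adjusted p = 0.000939) and -0.06 ± 0.10 at E16.5 against E14.5 (adjusted p = 0.661).

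Ezh1 (ENSRNOG00000020336), the alternative catalytic subunit, moved the other way. It had 23.0 and 21.1 CPM in HFD and 23.6, 16.9 and 17.1 CPM in control libraries at E14.5, and 21.4 and 22.2 CPM in HFD and 19.5, 23.6 and 17.2 CPM in control libraries at E16.5. At E18.5 it had 27.8 and 30.2 CPM in HFD and 29.0 and 31.0 CPM in control libraries, each above every earlier library. The rise at E18.5 against E14.5 was 0.53 ± 0.12 on the log2 scale (adjusted p = 0.00261, edgeR). It too lay in the second interval, with 0.50 ± 0.12 at E18.5 against E16.5 (adjusted p = 0.0129) and 0.03 ± 0.12 at E16.5 against E14.5 (adjusted p = 0.867).

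As Ezh2 and Ezh1 moved in opposite directions at the same interval, the ratio of their CPM shifted. It averaged 8.09 ± 2.43 at E14.5 (SD, n = 5), 7.35 ± 1.25 at E16.5 (n = 5) and 3.12 ± 0.162 at E18.5 (n = 4). The E18.5 libraries spanned 2.99 to 3.35 and the earlier ones 5.38 to 10.7, with no overlap. The ratio is not corrected for transcript length, so its size says nothing of which enzyme is the more abundant, and only its change between libraries can be read. The ratio was 6.01 in the library set apart, inside the range of the earlier stages.

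**Figure D2:**
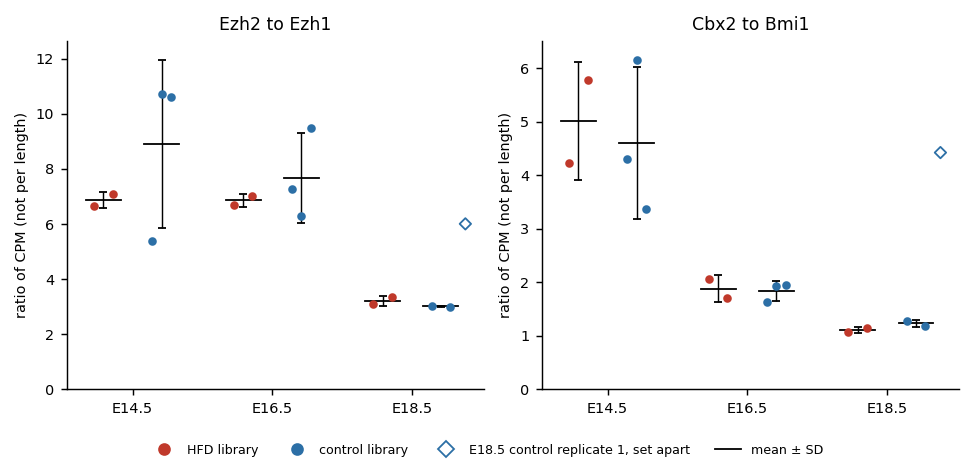
Ratio of Ezh2 to Ezh1 CPM (left) and of Cbx2 to Bmi1 CPM (right) per library by stage, HFD red and left, control blue and right, with the mean ± SD and the library set apart as an open diamond. The Ezh2 to Ezh1 ratio of the 4 E18.5 libraries lies at 2.99 to 3.35, below all earlier libraries. Without the library set apart, the Cbx2 to Bmi1 ratio separates the 3 stages.

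Suz12 (ENSRNOG00000058663), the core scaffold subunit, had the timing of Ezh2. Its level was 54.7 and 54.3 CPM in HFD and 39.2, 59.1 and 73.7 CPM in control libraries at E14.5, and 49.5 and 60.1 CPM in HFD and 56.1, 54.3 and 72.3 CPM in control libraries at E16.5. At E18.5 it had 32.2 and 36.1 CPM in HFD and 37.4 and 38.4 CPM in control libraries. All 4 lay below the earlier libraries, although the highest of them and the lowest E14.5 control library (39.2 CPM) were close. The log2 fold change was -0.64 ± 0.16 at E18.5 against E14.5 (adjusted p = 0.00442, edgeR), -0.68 ± 0.16 at E18.5 against E16.5 (adjusted p = 0.0104) and 0.05 ± 0.15 at E16.5 against E14.5 (adjusted p = 0.835).

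Eed (ENSRNOG00000017509), the core subunit that binds the methylated tail, was called lower in both intervals. It had 35.6 and 35.1 CPM in HFD and 30.2, 39.5 and 34.2 CPM in control libraries at E14.5, 25.6 and 25.7 CPM in HFD and 30.5, 23.4 and 28.9 CPM in control libraries at E16.5, and 22.3 and 18.9 CPM in HFD and 20.9 and 21.0 CPM in control libraries at E18.5. The 4 E18.5 libraries of the fit were below all earlier ones, while E16.5 and E14.5 overlapped at 1 E16.5 control library. The fall at E18.5 against E14.5 was -0.76 ± 0.11 on the log2 scale (adjusted p = 7.13e-05, edgeR), made of -0.40 ± 0.10 at E16.5 against E14.5 (adjusted p = 0.00707) and -0.36 ± 0.11 at E18.5 against E16.5 (adjusted p = 0.0334). The second call held under 10 of 21 alternatives, and was lost with DESeq2 (adjusted p = 0.0835), with all 15 libraries (adjusted p = 0.0954) and without any 1 of the 4 E18.5 libraries (adjusted p 0.0779 to 0.139).

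Rbbp7 (ENSRNOG00000005157), a histone-binding subunit that PRC2 shares with other chromatin complexes, fell in both intervals as well. Its level was 174 and 185 CPM in HFD and 164, 210.3 and 172 CPM in control libraries at E14.5, 111 and 126 CPM in HFD and 117, 122 and 149 CPM in control libraries at E16.5, and 87.5 and 91.7 CPM in HFD and 93.3 and 105 CPM in control libraries at E18.5. In the 14 libraries of the fit the 3 stages did not overlap. The log2 fold change was -0.94 ± 0.10 at E18.5 against E14.5 (adjusted p = 9.33e-06, edgeR), -0.55 ± 0.10 at E16.5 against E14.5 (adjusted p = 0.000716) and -0.40 ± 0.10 at E18.5 against E16.5 (adjusted p = 0.0163). Rbbp7 and its paralog Rbbp4 are similar in sequence, and how shared reads were assigned between them was not tested.

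Jarid2 (ENSRNOG00000045918), an accessory subunit that helps bring PRC2 to its targets, differed least among the PRC2 members. It averaged 146 ± 17.2 CPM at E14.5 (SD, n = 5), 136 ± 7.52 CPM at E16.5 (n = 5) and 126 ± 8.53 CPM at E18.5 (n = 4), and the stages overlapped. At E18.5 against E14.5 the log2 fold change was -0.19 ± 0.09 (95% interval -0.39 to -0.00052, unadjusted p = 0.0495, adjusted p = 0.0789, edgeR).

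The 2 PRC1 members moved apart. Cbx2 (ENSRNOG00000049215), a chromodomain reader that compacts chromatin, had 123 and 141 CPM in HFD and 116, 149.8 and 106 CPM in control libraries at E14.5, 89.3 and 69.3 CPM in HFD and 82.3, 80.3 and 83.1 CPM in control libraries at E16.5, and 47.2 and 47.9 CPM in HFD and 51.8 and 50.1 CPM in control libraries at E18.5. In the 14 libraries of the fit its 3 stages did not overlap. Its fall was the largest of the members at -1.38 ± 0.11 on the log2 scale for E18.5 against E14.5 (adjusted p = 1.50e-06, edgeR). Both intervals contributed, with -0.66 ± 0.10 at E16.5 against E14.5 (adjusted p = 0.000319) and -0.71 ± 0.11 at E18.5 against E16.5 (adjusted p = 0.000986).

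Bmi1 (ENSRNOG00000016585), the PRC1 subunit known for self-renewal of neural stem cells in the mouse, had 29.0 and 24.3 CPM in HFD and 26.98, 24.4 and 31.6 CPM in control libraries at E14.5. It had 43.5 and 40.6 CPM in HFD and 50.7, 41.5 and 42.5 CPM in control libraries at E16.5, and 44.0 and 41.5 CPM in HFD and 40.7 and 42.2 CPM in control libraries at E18.5. Every later-stage library of the fit was above every E14.5 library. The rise came in the first interval, at 0.68 ± 0.10 on the log2 scale for E16.5 against E14.5 (adjusted p = 0.000178, edgeR), with -0.05 ± 0.10 at E18.5 against E16.5 (adjusted p = 0.796) and 0.63 ± 0.10 at E18.5 against E14.5 (adjusted p = 0.000180). The Cbx2 to Bmi1 ratio of CPM averaged 4.76 ± 1.16 at E14.5, 1.85 ± 0.183 at E16.5 and 1.17 ± 0.0831 at E18.5 (SD, n = 5, 5 and 4).

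The H3K27 demethylases showed smaller and less stable differences. Kdm6b (ENSRNOG00000037613), an inducible demethylase needed for neuronal commitment in mouse cells, had 187 and 160.1 CPM in HFD and 209, 177 and 159.6 CPM in control libraries at E14.5, 284 and 186 CPM in HFD and 253, 238 and 195 CPM in control libraries at E16.5, and 259 and 215 CPM in HFD and 226 and 189.6 CPM in control libraries at E18.5. Stages overlapped. It was called at E16.5 against E14.5 (log2 fold change 0.38 ± 0.13, adjusted p = 0.0352, edgeR) and missed the threshold at E18.5 against E14.5 (0.32 ± 0.14, adjusted p = 0.0645), where 13 of 21 alternatives called it, DESeq2 among them (adjusted p = 0.0289). Kdm6a (ENSRNOG00000052721), the X-linked demethylase that is also part of a KMT2 complex, averaged 73.4 ± 11.1 CPM at E14.5 (SD, n = 5), 64.3 ± 10.8 CPM at E16.5 (n = 5) and 57.9 ± 8.19 CPM at E18.5 (n = 4). It was called lower at E18.5 against E14.5 (-0.37 ± 0.13, adjusted p = 0.0242) although the stages overlapped.

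By interval, 5 members were called at E16.5 against E14.5, where 42.9% of all genes were (21.6% higher and 21.3% lower), and 6 at E18.5 against E16.5, where 22.4% of all genes were (10.6% higher and 11.8% lower). Bmi1 and Kdm6b were higher and Cbx2, Rbbp7 and Eed lower in the first interval. Ezh1 was higher and Ezh2, Suz12, Cbx2, Rbbp7 and Eed lower in the second. Overlap was read in the 14 libraries of the fit, without E18.5 Control replicate 1. Libraries of E18.5 and E14.5 did not overlap for 7 members, Ezh1, Ezh2, Eed, Suz12, Rbbp7, Bmi1 and Cbx2, against 49.1% of all genes. For E18.5 and E16.5 this held for 6 members against 27.4% of all genes, and for E16.5 and E14.5 for 3 members against 27.9%. The library set apart lay inside the E14.5 range for Ezh1, Ezh2, Suz12, Bmi1 and Cbx2, and below it for Eed and Rbbp7. It lay below every E16.5 library for Ezh2 and Suz12. It was inside the E16.5 range for Ezh1 and Eed, and above that range for Rbbp7 and Cbx2.

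**Figure D3:**
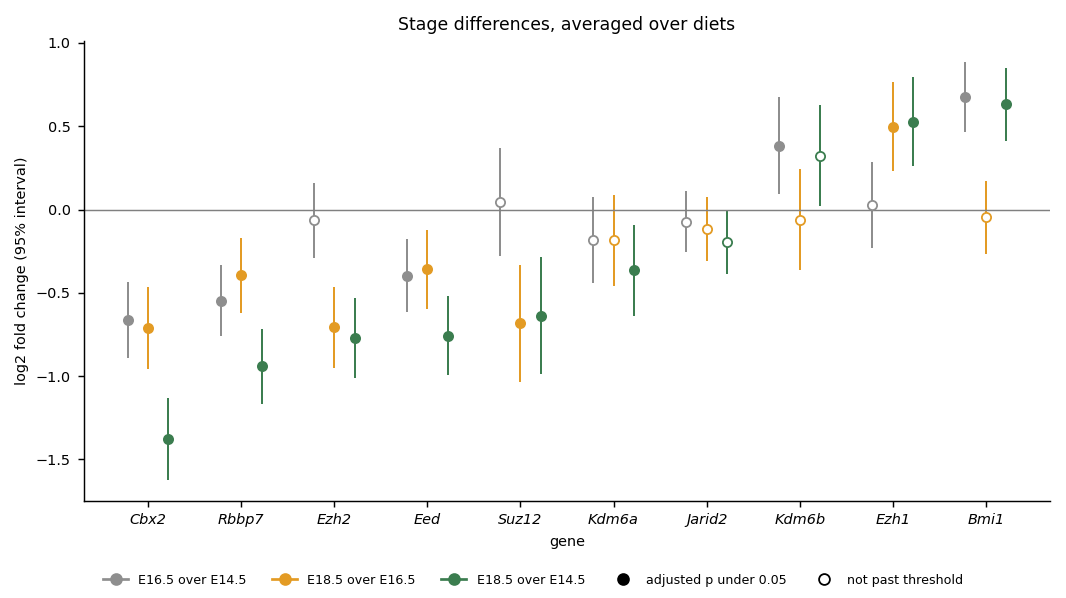
Log2 fold change between stages averaged over diets (y axis) for each member (x axis), with 95% intervals, filled where the adjusted p was under 0.05. Cbx2 has the lowest value at E18.5 over E14.5 (-1.38). Between E16.5 over E14.5 and E18.5 over E16.5, Ezh2, Suz12 and Ezh1 were called only in the latter. Bmi1 and Kdm6b were called only in the former.

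Calls of the second interval depended on the libraries used. With all 15 libraries, 693 genes in place of 3437 and 2 members in place of 6 were called, Ezh2 (adjusted p = 0.0342, edgeR) and Suz12 (adjusted p = 0.0422). Without E18.5 HFD replicate 1, 3 members were called, with Eed, Suz12 and Rbbp7 at adjusted p of 0.0839, 0.0681 and 0.118. Rbbp7 was also lost without E16.5 HFD replicate 2 (adjusted p = 0.0593) or E18.5 Control replicate 2 (adjusted p = 0.0725), and Ezh1 without E18.5 HFD replicate 2 (adjusted p = 0.0554).

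Within each diet all 10 members had the sign of the average at E18.5 against E14.5, and Kdm6a differed most in size. At E18.5 against E14.5 Ezh2 had -0.69 ± 0.16 among HFD libraries and -0.85 ± 0.15 among control libraries on the log2 scale, Cbx2 had -1.47 ± 0.17 among HFD libraries and -1.28 ± 0.15 among control libraries, and Bmi1 had 0.68 ± 0.15 among HFD libraries and 0.58 ± 0.14 among control libraries. Ezh1 had 0.40 ± 0.18 among HFD libraries (adjusted p = 0.0898, edgeR) and 0.65 ± 0.16 among control libraries (adjusted p = 0.00664). Kdm6a had -0.60 ± 0.19 among HFD libraries (adjusted p = 0.0184) and -0.13 ± 0.17 among control libraries (adjusted p = 0.566), and the difference between these, -0.47 ± 0.25, did not pass the threshold (adjusted p = 0.934). The test of the difference between diets (the diet effect at E18.5 minus that at E14.5) called none of the members and none of the 15354 genes with edgeR, with 867 genes (5.65%) at an unadjusted p under 0.05 and 8 called by DESeq2.

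Cell content also differed between stages. Markers of proliferation fell together at E18.5 against E14.5, 19 of 19 tested, with a median log2 fold change of -1.68 and summed levels of 1110 to 1340 CPM at E18.5 and 2712 to 4194 CPM at E14.5. Of these, Mki67, which marks cycling cells, had 250.97 to 289.6 CPM in the 4 E18.5 libraries and 581 to 954 CPM in the E14.5 libraries. All 16 neuron markers rose, with a median of 1.89 and summed levels of 7838 to 8365 CPM at E18.5 and 1500 to 3551 CPM at E14.5. At E18.5 against E16.5 all 19 proliferation markers fell too, with a median of -1.20, and 5 of 16 neuron markers were called higher (median 0.31). In the first interval, E16.5 against E14.5, 14 of 19 proliferation markers were called lower (median -0.42), beside 21.3% of all genes. All 16 neuron markers were called higher there (median 1.615), beside 21.6% of all genes. Of the members, Cbx2, Rbbp7 and Eed were called lower and Bmi1 and Kdm6b higher in that interval. Ezh2, Ezh1, Suz12, Jarid2 and Kdm6a were not called there. In bulk tissue, fewer cells of a type and less RNA per cell cannot be told apart, and the part of cell content in the members' differences was not tested.

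The E14.5 libraries held more head tissue RNA than the later libraries of the fit. Of 17 head mesenchyme markers, 16 were called lower at E18.5 against E14.5, and Twist1, which marks mesenchyme, had 1.37 to 2.25 CPM in the 4 E18.5 libraries and 28.9 to 108 CPM in the E14.5 libraries. E14.5 Control replicate 3 had the lowest marker sum of its stage, 1937 CPM. At E18.5 against E16.5 the sums overlapped and 2 of the 17 markers were called higher, beside 10.6% of all genes. The part of head tissue in the members' stage differences was not tested.

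The wider complexes are described by counts, beside the 27% of all genes called higher and 31.6% called lower (58.6% in all) at E18.5 against E14.5. Of 12 PRC2 subunits tested, 8 fell and 2 rose at E18.5 against E14.5, with a median of -0.59 against -0.07 over all genes. The PRC2 and PRC1 lists include the members of these complexes, so their counts and medians partly repeat the members' results. Besides the members, Mtf2, which guides PRC2 to CpG-rich DNA, fell by 0.52 ± 0.08 on the log2 scale (adjusted p = 0.000120, edgeR). Phf1, a related targeting subunit, rose by 0.70 ± 0.16 (adjusted p = 0.00269).

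Of 25 PRC1 subunits, 10 rose and 3 fell, with a median of 0.16, a share called below the 58.6% of all genes. Kdm2b, which recruits a variant PRC1 to CpG islands, rose by 0.67 ± 0.08 on the log2 scale (adjusted p = 1.12e-05, edgeR), Cbx6 by 0.65 ± 0.13 (adjusted p = 0.000913) and Phc3, a polyhomeotic subunit, by 0.45 ± 0.10 (adjusted p = 0.00156). Phc2, another polyhomeotic subunit, fell by 0.40 ± 0.09 (adjusted p = 0.00301), and Scml2 by 0.40 ± 0.12 (adjusted p = 0.0104). Only Cbx2 among the called PRC1 subunits fell by more than 1 log2 unit.

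**Figure D4:**
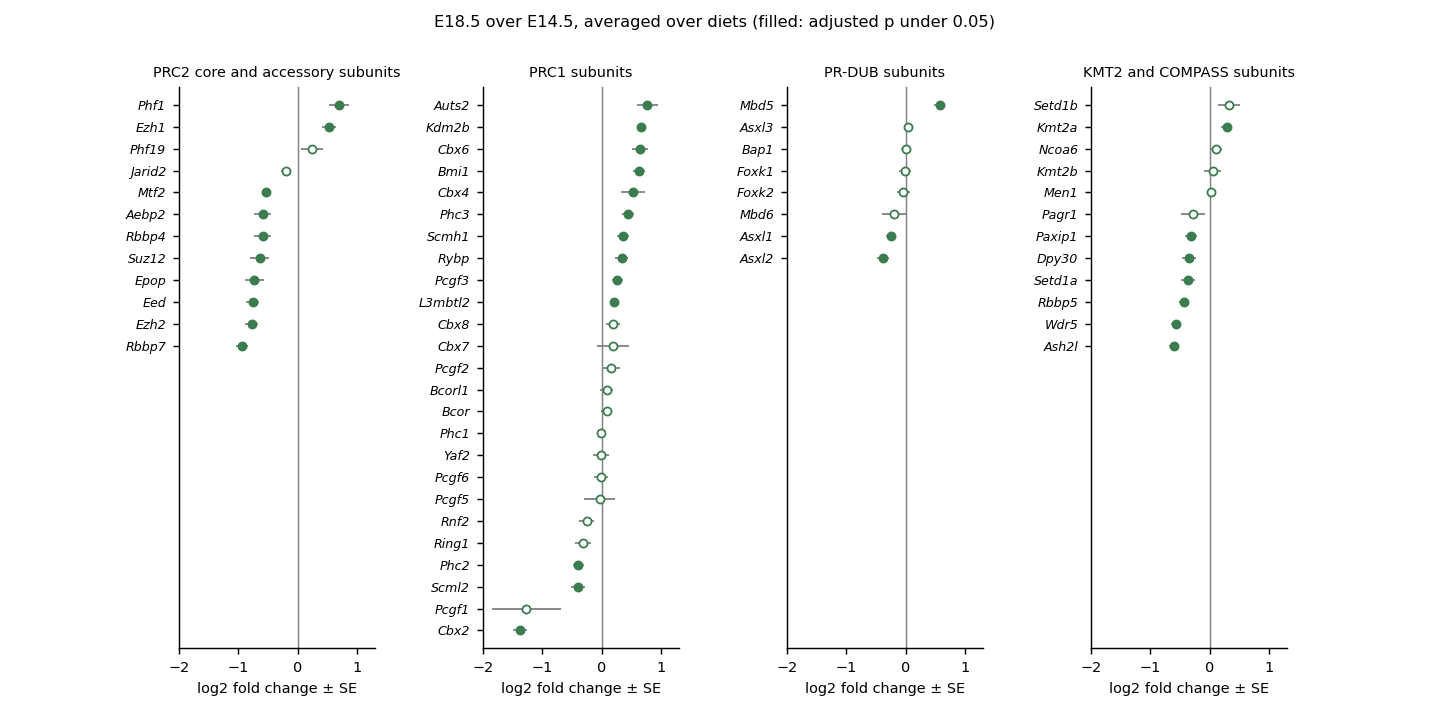
Log2 fold change of E18.5 over E14.5, averaged over diets, with SE (x axis) for each tested subunit of 4 complexes (y axis), filled where the adjusted p was under 0.05. PRC2 has 8 subunits called lower and 2 higher, and PRC1 has 10 called higher and 3 lower.

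Other chromatin complexes were read in the same comparison. Of 8 subunits of PR-DUB, which removes ubiquitin from H2A, Mbd5 rose by 0.57 ± 0.09 on the log2 scale (adjusted p = 0.000161, edgeR), while Asxl2 fell by 0.39 ± 0.10 (adjusted p = 0.00590) and Asxl1 by 0.25 ± 0.08 (adjusted p = 0.0113). Of 12 KMT2 and COMPASS subunits, which methylate H3K4, 6 fell and 1 rose, with a median of -0.29. The core subunits Wdr5, Ash2l and Rbbp5 fell by 0.57 ± 0.08, 0.60 ± 0.09 and 0.43 ± 0.09, Paxip1 fell by 0.32 ± 0.10, and the methyltransferase Kmt2a rose by 0.29 ± 0.09. The acetyltransferase gene Crebbp had 0.04 ± 0.09 (adjusted p = 0.710). Of 20 classical Polycomb target genes only 7 passed the filter on low counts, and 4 of these, Gata6, Foxa2, Pax2 and Pax9, were under 1 CPM in every E18.5 library. Because such genes passed through their E14.5 level, no stage count over them is read.

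The profiles of 3 members were compared with the group means of 10766 named genes at 5 CPM or more, by the mean absolute distance of centred log2 CPM over the 6 groups of stage and diet. Nearest to Ezh2 were Anp32e (distance 0.0315), Eri1 (0.0346), Cdk4 (0.0372) and Cdk2ap1 (0.0400), where the median gene lay at 0.347. Nearest to Ezh1 were Ptprm (0.0303), Bin1 (0.0363), Lmo4 (0.0380) and Keap1 (0.0400), where the median gene lay at 0.321. Nearest to Kdm6b were Rab40c (0.0137), Setd1b (0.0187), Pim3 (0.0242) and Rere (0.0242), where the median gene lay at 0.260. These are descriptions over 6 group means, with no test.

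Maternal diet, the comparison the study was built on, gave no call for any member. At each stage 0 of 10 members and 0% of 15354 genes passed the threshold with edgeR. At an unadjusted p under 0.05 there were 1453 genes (9.46%) at E14.5, 360 (2.34%) at E16.5 and 236 (1.54%) at E18.5, none of them a member, and DESeq2 called 96, 0 and 12 genes at these stages, again with no member. Averaged over stages edgeR called 0 genes, with 459 (2.99%) at an unadjusted p under 0.05, and DESeq2 called 4. The diet effect at E16.5 minus that at E14.5 was called for 0 genes, with 1214 (7.91%) at an unadjusted p under 0.05 and 40 by DESeq2.

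Ezh2 averaged 151 ± 2.82 CPM in HFD and 163 ± 31.1 CPM in control libraries at E14.5 (SD, n = 2 and 3), 149.5 ± 9.75 CPM in HFD and 150.9 ± 11.1 CPM in control libraries at E16.5 (n = 2 and 3), and 93.6 ± 10.8 CPM in HFD and 90.3 ± 3.61 CPM in control libraries at E18.5 (n = 2 each). HFD and control libraries overlapped at each stage. The log2 fold change of HFD over control was -0.11 ± 0.15 at E14.5 (95% interval -0.43 to 0.21), -0.01 ± 0.15 at E16.5 (-0.33 to 0.31) and 0.05 ± 0.16 at E18.5 (-0.30 to 0.41). With all 15 libraries the value at E18.5 was -0.14 ± 0.20, on the other side of 0. A p that misses the threshold does not show equal levels, and the intervals give the sizes that these libraries leave possible.

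Kdm6a had the largest diet difference among the members at E16.5 and at E18.5 in the 14 libraries of the fit, though not at E14.5, and with all 15 libraries Cbx2 had the larger one at E18.5. It had 86.7 and 68.1 CPM in HFD and 68.4, 60.7 and 83.3 CPM in control libraries at E14.5. It had 63.8 and 79.9 CPM in HFD and 49.6, 66.4 and 61.6 CPM in control libraries at E16.5, where the groups overlapped, and 53.0 and 49.0 CPM in HFD and 66.5 and 62.9 CPM in control libraries at E18.5, where both HFD libraries were lower. The log2 fold change was 0.13 ± 0.17 at E14.5, 0.28 ± 0.17 at E16.5 and -0.34 ± 0.19 at E18.5, and none passed the threshold. The difference of the diet effect at E18.5 minus E16.5 was -0.62 ± 0.25 (unadjusted p = 0.0289, adjusted p = 1.00, edgeR), where 200 genes or 1.3% of all had an unadjusted p under 0.05. DESeq2 called 1 gene there, which was not Kdm6a. Kdm6a is X-linked, as is Rbbp7, and the sex of the pooled embryos was not given in the sources used here.

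Across the other members the diet effects were small in both directions. At E14.5 they ranged between -0.18 ± 0.12 for Jarid2 and 0.21 ± 0.17 for Ezh1, at E16.5 between -0.16 ± 0.21 for Suz12 and 0.12 ± 0.17 for Ezh1, and at E18.5 between -0.15 ± 0.24 for Suz12 and 0.19 ± 0.21 for Kdm6b. HFD and control libraries overlapped for all 10 members at E14.5 and at E16.5, where 20.8% and 17.4% of all genes did not overlap. At E18.5, 4 members had both HFD libraries below both control libraries, Suz12, Rbbp7, Kdm6a and Cbx2, where 15% of all genes did so and 29% did not overlap in either direction. The gap was narrow for Cbx2, with 47.2 and 47.9 CPM in HFD and 51.8 and 50.1 CPM in control libraries. It was also narrow for Rbbp7 (highest HFD library 91.7 CPM, lowest control library 93.3 CPM) and Suz12 (36.1 and 37.4 CPM). For Kdm6a the diet difference at E18.5 was -0.34 ± 0.19. Its stage difference at E18.5 against E14.5, -0.37 ± 0.13, rests on the same E18.5 HFD libraries. It was -0.60 ± 0.19 among HFD libraries and -0.13 ± 0.17 among control libraries. With all 15 libraries the diet effects at E18.5 were -0.59 ± 0.31 for Cbx2, -0.35 ± 0.19 for Rbbp7, -0.17 ± 0.13 for Jarid2, -0.07 ± 0.15 for Eed, 0.24 ± 0.20 for Bmi1 and 0.09 ± 0.19 for Ezh1. Without E18.5 Control replicate 1 they were -0.10 ± 0.17 for Cbx2, -0.14 ± 0.15 for Rbbp7, -0.09 ± 0.13 for Jarid2, -0.02 ± 0.16 for Eed, 0.04 ± 0.15 for Bmi1 and -0.05 ± 0.18 for Ezh1, and none passed the threshold in either fit.

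**Figure D5:**
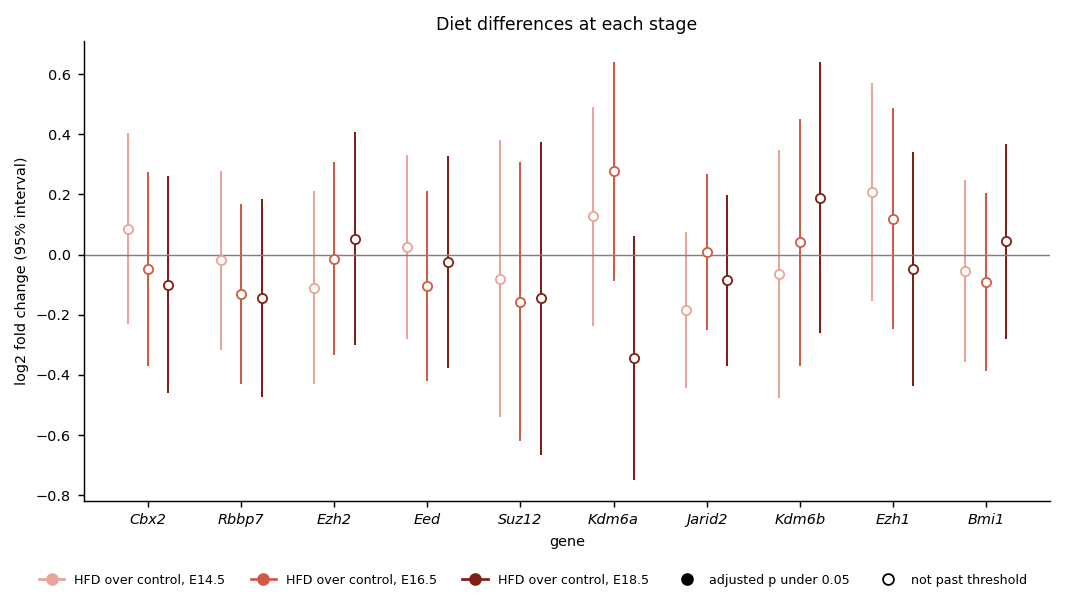
Log2 fold change of HFD over control (y axis) for each member (x axis), with the 3 stages from earliest to latest in light to dark red, with 95% intervals, and open symbols because none passed the threshold. Every interval crosses 0, and the values lie between -0.34 and 0.28.

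As edgeR called no gene for diet at any stage, no head mesenchyme marker was called. The markers' summed levels are given here beside the diet values. All 17 head mesenchyme markers had a positive log2 fold change in HFD over control at E14.5, with a median of 0.65, and their sum was 4799 and 5310 CPM in HFD, inside the 1937 to 6202 CPM of control libraries. At the later stages the sum was lower in HFD, with 458 to 554 CPM in HFD and 697 to 1123 CPM in control libraries at E16.5, and 534 to 649.7 CPM in HFD and 858 to 1298 CPM in control libraries at E18.5, with no overlap. Of the 17 markers only Alx1 was under 1 CPM in every library of these stages. The part of this tissue in the members' diet values was not tested. At each stage edgeR called 0 of 15354 genes for diet, so the wider complexes had 0 calls too. These were 12 PRC2, 25 PRC1, 8 PR-DUB and 12 KMT2 and COMPASS subunits.

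For the library set apart, 7 of the 10 members lay inside the range of the E14.5 libraries, 4 inside that of E16.5 and 1, Kdm6b, inside that of the other E18.5 libraries. Over all genes tested the shares were 70.6% for E14.5, 43% for E16.5 and 24.7% for E18.5. It was above both other E18.5 control libraries for 7 members and 46.7% of all genes, and below both for 2 members and 37.2% of all genes. Its Bmi1 level was 27.1 CPM against 40.7 and 42.2 CPM in its 2 sister control libraries, and its Ezh1 level was 22.7 CPM against 29.0 and 31.0 CPM. With all 15 libraries, 8 members were again called at E18.5 against E14.5. Kdm6a was then not called (adjusted p = 0.0613, edgeR), and Kdm6b was (adjusted p = 0.0284).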

How the data were processed

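Estimated counts, also called expected counts, were deposited by the authors as 1 table of whole numbers without normalisation, covering 32623 rat genes in 15 libraries. Per the study's methods, reads were aligned with Bowtie2 to rn6 and counted with RSEM. The submitters' processing notes name HTSeq, so how reads shared between similar genes were assigned is uncertain, and the named annotation is a human release. Whether strand was used is not given in these sources.

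Counts were used as deposited. Genes were filtered with filterByExpr by group, scaled with TMM and tested with edgeR 4.0.16 (quasi-likelihood, robust, R 4.3.3) over 14 libraries with 1 mean for each of 6 groups of stage and diet. E18.5 Control replicate 1 was left out of the main fit, and its CPM come from a scaling of all 15 libraries. Adjusted p are Benjamini-Hochberg over 15354 genes, with a threshold of 0.05. Standard errors were taken as the size of the log2 fold change over the root of its F statistic. The scripts were tested on simulated data. As alternatives, DESeq2 1.42.0, RLE scaling, no filter, a floor of 10 counts per library, all 15 libraries, a block on replicate number, a fit restricted to the groups compared, and fits leaving out 1 library were run. Log2 CPM used a prior count of 2.

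Library totals of 5598195 to 9529978 counts and the small number of litters limit the precision. The p-values measure the spread between litters.

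The members and gene lists were chosen with earlier results of these data known. All members are named, with up to 4 genes per complex and direction by smallest p in E18.5 against E14.5, the 4 genes nearest in profile to Ezh2, Ezh1 and Kdm6b, and up to 2 genes per marker list.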

Additional observations from a re-analysis of the deposited data

Results flagged for a closer look

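E18.5 Control replicate 1 is outside the main comparisons, and 7 members had a level in it above both other E18.5 control libraries, as did 46.7% of all genes tested, while 2 members and 37.2% of all genes were below both. In CPM, it had 136 for Ezh2 against 87.8 and 92.9, 24.3 for Eed against 20.9 and 21.0, 42.9 for Suz12 against 37.4 and 38.4, and 161 for Jarid2 against 122 and 137. It had 152 for Rbbp7 against 93.3 and 105, 72.3 for Kdm6a against 62.9 and 66.5, and 119.8 for Cbx2 against 50.1 and 51.8. No test was run on this single library.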

How the results depend on the processing

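Under the alternatives, no member was called in any diet comparison, 7 to 9 members were called at E18.5 against E14.5 and 4 or 5 at E16.5 against E14.5. Cbx2, Rbbp7, Ezh2, Eed, Suz12, Bmi1 and Ezh1 passed the threshold at E18.5 against E14.5 under all 21 alternatives. Kdm6a and Kdm6b each passed under 13 of 21, with adjusted p (edgeR or DESeq2) of 0.0116 to 0.115 and of 0.00187 to 0.197. Kdm6a was lost with no filter on low counts (adjusted p = 0.0502, edgeR) and with all 15 libraries (adjusted p = 0.0613, edgeR). It was also lost without E14.5 HFD replicate 1, E16.5 Control replicates 2 and 3, E18.5 Control replicate 3 or E18.5 HFD replicates 1 and 2, each left out alone. Jarid2 was called without E14.5 Control replicate 3 (adjusted p = 0.0209, edgeR). Kdm6b at E16.5 against E14.5 passed under 16 of 21 and was lost without E14.5 Control replicate 2 or 3, E14.5 HFD replicate 2, E16.5 Control replicate 1 or E16.5 HFD replicate 1 (adjusted p 0.0579 to 0.136). Eed at E18.5 against E16.5 passed under 10 of 21, and was lost with RLE, DESeq2 or all 15 libraries, and without E16.5 Control replicate 1 or 3, either E16.5 HFD library or any of the 4 E18.5 libraries (adjusted p up to 0.139). The causes were not tested.

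Gene counts for diet were 0 in the main test. DESeq2 called 96 at E14.5, 12 at E18.5, 4 averaged over stages, and 40, 1 and 8 for the differences E16.5 minus E14.5, E18.5 minus E16.5 and E18.5 minus E14.5. No filter gave 4 at E14.5. At E18.5, at least 10 counts in every library gave 1, all 15 libraries 1 and only the groups compared 3. Leaving out 1 library gave 0 to 197 at E14.5, 0 to 3 at E16.5, 0 to 15 at E18.5, 0 to 11 averaged over stages, and 0 to 49 and 0 to 1 for the first and second differences. At E18.5 against E16.5 all 15 libraries gave 693 genes and 2 members, and leaving out 1 library gave 2118 to 3973 genes and 3 to 6 members. Gene counts there were 2118 without E18.5 Control replicate 2, 2141 without E18.5 HFD replicate 1 and 2213 without E18.5 HFD replicate 2.

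Correlations of the deviations of same-numbered libraries were -0.142 to 0.239 over 28 pairs, with 10 over 0.1, including those of replicate 3. The main fit did not take the numbers as pairs. These correlations cannot settle that choice, as deviations in 2-library groups mirror each other. The replicate block turned the sign of diet effects at E14.5 to 0.0929 for Suz12 and 0.0292 for Rbbp7, at E16.5 to 0.0545 for Ezh2, -0.0507 for Jarid2 and -0.0842 for Kdm6b, and at E18.5 to 0.101 for Suz12 and -0.0439 for Kdm6b. It gave 0.00989 for Kdm6b at E18.5 against E16.5, and 4262 genes and 6 members called there. At E18.5 against E14.5 the block called 9440 genes and 9 members, adding Kdm6b (0.386 ± 0.0810, adjusted p = 0.00187, edgeR), and it changed no other call of a member.

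Ezh2 at E16.5 for HFD over control was 0.0107 with no filter, 0.00670 with at least 10 counts in every library and 0.00360 with all 15 libraries. With all 15 libraries, HFD over control at E18.5 was 0.0916 for Ezh1 and -0.142 for Ezh2. Leaving out 1 library gave both signs for these log2 fold changes of HFD over control. At E14.5 the ranges were -0.0698 to 0.131 for Eed, -0.182 to 0.0412 for Kdm6b, -0.0989 to 0.0975 for Rbbp7, -0.292 to 0.141 for Suz12, -0.187 to 0.0699 for Bmi1, -0.0157 to 0.246 for Cbx2 and -0.0578 to 0.291 for Kdm6a. At E16.5 they were -0.0828 to 0.0803 for Ezh2, -0.0323 to 0.0794 for Jarid2, -0.122 to 0.0201 for Bmi1, -0.304 to 0.0169 for Suz12, -0.230 to 0.0120 for Rbbp7, -0.267 to 0.314 for Kdm6b and -0.212 to 0.124 for Cbx2. At E18.5 they were -0.171 to 0.00229 for Jarid2, -0.113 to 0.00902 for Ezh1, -0.0735 to 0.164 for Ezh2 and -0.144 to 0.0933 for Eed. For stage they were -0.0577 to 0.166 for Suz12, -0.0127 to 0.125 for Ezh1 and -0.140 to 0.0229 for Ezh2 at E16.5 against E14.5, and -0.0708 to 0.0507 for Bmi1 and -0.199 to 0.101 for Kdm6b at E18.5 against E16.5. A fit with only the groups compared could not be made for diet averaged over stages.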
